A study of Canis lupus familiaris with 34 samples.

Results

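MHC class II genes and the genes that serve them were followed across canine osteosarcoma cell lines and tumour tissues. The 6 genes were chosen by name: the class II chains DLA-DRA, DLA-DQA1 and HLA-DRB1, the invariant chain CD74, the transactivator CIITA and the protease cathepsin S (CTSS). They had 12 of the 42860 probe sets on the Affymetrix Canine_2 array, controls left out. Of these, 10 probe sets passed a filter of log2 over 5 on at least 3 arrays, so 5 of the 6 genes were among the 7849 genes tested, and both CIITA probe sets failed it. The study measured 34 arrays from 31 dogs with osteosarcoma, a malignant bone tumour of large breeds. There were 3 lines derived from metastases, 25 arrays of lines derived from primary tumours, and 6 snap-frozen primary tumours. The metastatic lines came from 1 Rhodesian Ridgeback and 2 Rottweilers, 1 female and 2 male, with ages at diagnosis of 2.39 to 6.31. The primary lines came from 24 dogs of 7 named breeds, among them 10 Rottweilers and 7 Golden Retrievers, 10 female and 13 male, with ages of 2 to 11.19 in the 22 that had one. The tissues came from 5 female dogs and 1 male of 4 breeds, among them 3 Golden Retrievers, with ages of 2.67 to 11.91. The labels do not give the unit of age. Treatment labels were abbreviations: SOC was given for 1 dog with a metastatic line, 14 with a primary line and 3 with a tissue, PALL for 1 with a metastatic and 2 with a primary line, AMP for 3 and ABX for 1 with a primary line, and the others had none. Each line came from 1 dog, and dog 22 gave primary lines 19 and 22 and tissue 5, while dog 23 gave primary line 20 and tissue 6. The line arrays were made from primary tumour cells or from cultured cells that had been frozen, per the labels, and neither the passage nor which of these applied to an array is stated.

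MHC class II molecules are surface receptors that show peptides from ingested protein to CD4 T cells. An alpha and a beta chain pair in the endoplasmic reticulum on the invariant chain CD74, which fills the groove until cathepsin S cuts it in the endosome and DM exchanges the remnant for peptide. CIITA, a coactivator with no DNA binding of its own, switches on the chains and CD74 through the RFX, CREB and NF-Y proteins at their promoters. Macrophages, dendritic cells and B cells make class II all the time, and many other cells, mesenchymal ones included, make it after interferon gamma.

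All levels below are log2 of the GCRMA intensity, and each probe set was compared only with itself between arrays. Array medians were 3.02 to 3.07 in metastatic lines, 3.02 to 3.09 in primary lines and 3.06 to 3.12 in tissues. As a measure of RNA degradation, actin read at its 3′ end minus its 5′ end was 1.74 ± 1.91 in metastatic lines (SD, n = 3), 1.46 ± 0.993 on primary line arrays (n = 25) and 2.59 ± 1.15 in tissues (n = 6). It was 3.95 in metastatic line 1 but 0.65 and 0.63 in metastatic lines 2 and 3, and among line arrays only primary line 15 was higher at 4.04. Primary lines 5 and 25 had 0.58 and 1.33. Sample titles had 3 prefixes, taken as possible batches. Title prefix 3 held all 6 tissues but only 2 primary line arrays, and title prefix 2 held all 3 metastatic lines and 19 primary line arrays. Primary lines 5 and 9, of different dogs, correlated at 0.976 over the kept probe sets, above both arrays of dog 22 at 0.911 and close to the next pair at 0.975. Primary lines 5 and 9 share title prefix 2, while the arrays of dog 22 have title prefixes 2 and 3. For the tests primary lines 19 and 22 were averaged, giving 24 primary lines. P-values rest on 1 spread per gene, pooled over the dogs of the 3 groups, and not on the spread of each group by itself.

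DLA-DRA encodes the alpha chain of the DR molecule, and its main probe set (Cfa.6456.1.S1_at) was high in few lines and in every tissue. It read 9.54, 2.27 and 1.62 in metastatic lines 1, 2 and 3. On the 25 primary line arrays the lowest was 1.46, the median 2.06 and the highest 8.89. In tissues 1 to 6 it read 12.51, 12.37, 11.41, 10.71, 12.97 and 8.74. Metastatic line 1, primary line 25 at 8.89 and primary line 5 at 6.08 were the only lines above log2 5, and the next, primary line 18, was at 2.80. The groups overlapped only where metastatic line 1 and primary line 25 passed tissue 6. The second DLA-DRA probe set (CfaAffx.2126.1.S1_s_at) put the same 3 lines on top, primary line 25 at 7.23, metastatic line 1 at 6.32 and primary line 5 at 4.14, with no line above the lowest tissue at 7.64.

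HLA-DRB1 is the annotation's symbol for the DR beta chain, whose synonyms in the dog include DLA-DRB1. It read 11.79, 2.39 and 2.01 in metastatic lines 1, 2 and 3. On primary line arrays the lowest was 1.77, the median 2.24 and the highest 9.17. In tissues 1 to 6 it read 12.18, 11.99, 11.10, 10.60, 12.65 and 8.61. Primary line 5 at 9.17 and primary line 25 at 9.0 were again far above the other primary lines, of which primary lines 23, 14 and 3 came next at 4.08, 3.96 and 3.86. All 3 high lines passed tissue 6, and metastatic line 1 lay within the range of the other tissues. Primary lines 5 and 25 lay close to each other here, but not in DLA-DRA. The 3 lines all had title prefix 2, metastatic line 1 came from the Rhodesian Ridgeback, and primary lines 5 and 25 came from Rottweilers.

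DLA-DQA1, the alpha chain of the DQ molecule, separated the 3 lines more. It read 9.38, 1.75 and 1.63 in metastatic lines 1, 2 and 3. On primary line arrays the lowest was 1.13, the median 1.41 and the highest 5.53. In tissues 1 to 6 it read 11.51, 10.91, 9.32, 10.11, 12.21 and 8.07. Only metastatic line 1 lay within the tissue range, primary line 25 held the highest primary value, and primary line 5 was at 3.63. The other DLA-DQA1 probe set (Cfa.182.1.S1_s_at) was at most 2.18 in metastatic lines and 2.06 in primary lines, against 2.49 to 7.78 in tissues, so it did not show metastatic line 1 as high.

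CD74 was high in the same 3 lines. Its main probe set (Cfa.1333.3.S1_s_at) read 9.53, 3.71 and 2.75 in metastatic lines 1, 2 and 3. On primary line arrays the lowest was 2.54, the median 3.0 and the highest 9.17. In tissues 1 to 6 it read 10.84, 11.87, 11.06, 11.09, 13.48 and 8.59. Primary line 25 was at 9.17 and primary line 5 at 8.22, and the next, primary line 14, was at 5.19 with DLA-DRA at 2.20 and HLA-DRB1 at 3.96. A second CD74 probe set (Cfa.1333.3.S1_a_at) read 9.52 in metastatic line 1, 7.68 in primary line 5 and 7.44 in primary line 25, against 7.05 to 12.67 in tissues. The third (CfaAffx.27739.1.S1_at) read 5.71 in metastatic line 1 and at most 2.97 in any primary line, against 4.46 to 10.58 in tissues, and so did not show primary lines 5 and 25.

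**Figure D1:**
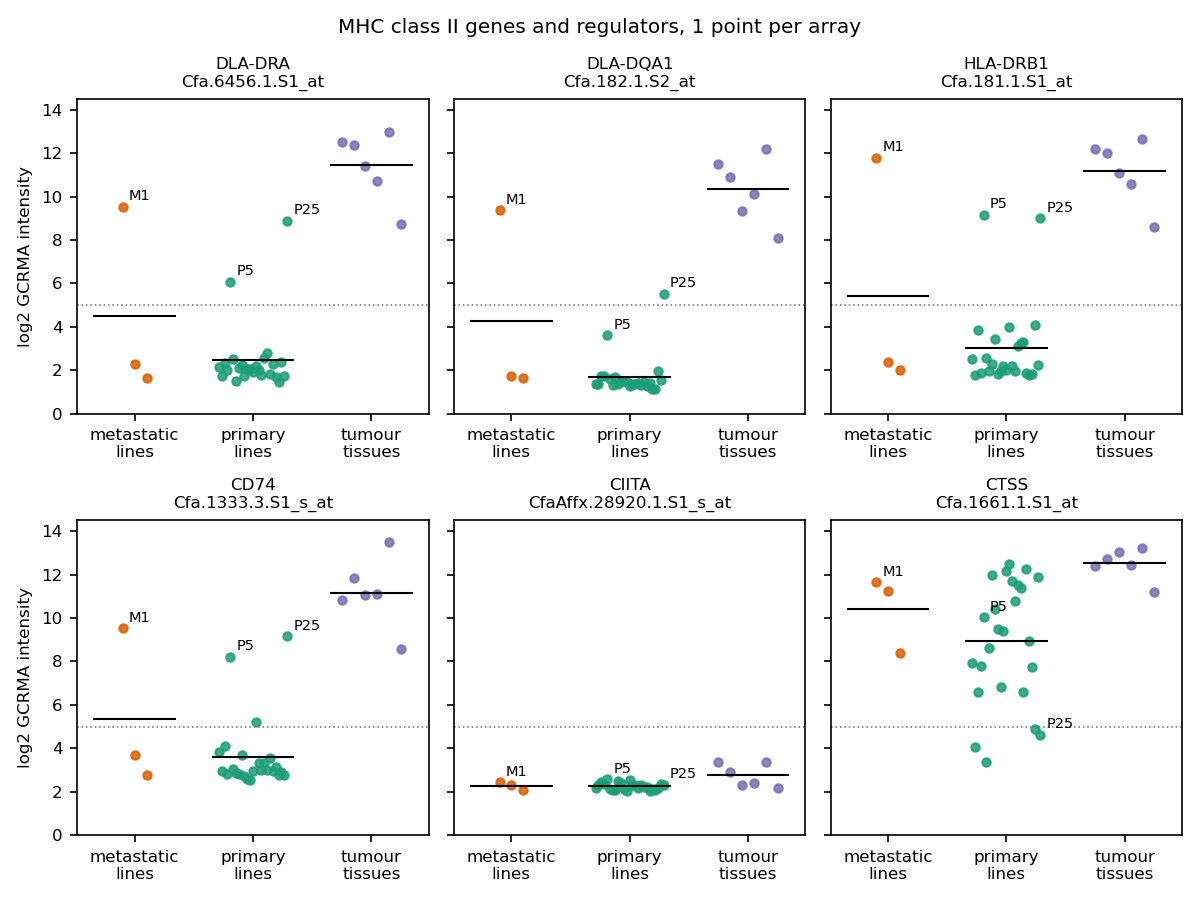
Log2 GCRMA intensity of the main probe set of each gene (for CIITA, CfaAffx.28920.1.S1_s_at), 1 point per array, in metastatic lines, primary lines and tumour tissues, with black lines at group means and a dotted line at the filter of 5. Metastatic line 1 (M1) and primary lines 5 and 25 (P5, P25) stand above the other lines in HLA-DRB1, DLA-DRA and CD74, no array passes 5 for CIITA, and CTSS is spread from 3.37 to 12.49 over the primary lines.

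CIITA was not above the filter on any array, so its probe sets set no level for it, including in tissues with strong class II. CfaAffx.28920.1.S1_s_at read 2.44, 2.30 and 2.07 in metastatic lines 1, 2 and 3. On primary line arrays the lowest was 2.01, the median 2.22 and the highest 2.56. In tissues 1 to 6 it read 3.37, 2.90, 2.31, 2.38, 3.38 and 2.18. Metastatic line 1, primary line 5 at 2.56 and primary line 25 at 2.32 were not apart from the other lines, while tissues 1, 2 and 5 were above all lines. CfaAffx.28933.1.S1_s_at ran from 2.69 to 3.04 in metastatic lines, from 2.70 to 3.21 on primary line arrays and from 2.48 to 2.85 in tissues. With no filter, every probe set by itself and limma's test, the CIITA difference of primary lines minus tissues was -0.50 for the first (adjusted p = 0.00512) and 0.28 for the second (adjusted p = 0.0066), of opposite sign. Whether CIITA transcript accompanied class II in the 3 lines was therefore not measurable with these probe sets.

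CTSS, the protease that trims CD74, was at high levels in most lines, with or without class II. Its main probe set (Cfa.1661.1.S1_at) read 11.66, 11.23 and 8.40 in metastatic lines 1, 2 and 3. On primary line arrays the lowest was 3.37, the median 9.40 and the highest 12.49, and 21 of 25 were above 5. In tissues 1 to 6 it read 12.41, 12.74, 13.05, 12.46, 13.22 and 11.21. The groups overlapped, the highest primary line being number 14, and primary line 25 at 4.63 was among the 4 line arrays not above 5, although its DLA-DRA was the highest of any primary line. Primary line 5 was at 10.04, and metastatic lines 2 and 3 had CTSS with none of DLA-DRA, DLA-DQA1 and HLA-DRB1 above 5. The second CTSS probe set (CfaAffx.18761.1.S1_s_at) was above 5 in 2 of 3 metastatic lines, 15 of 25 primary line arrays and 6 of 6 tissues.

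**Figure D2:**
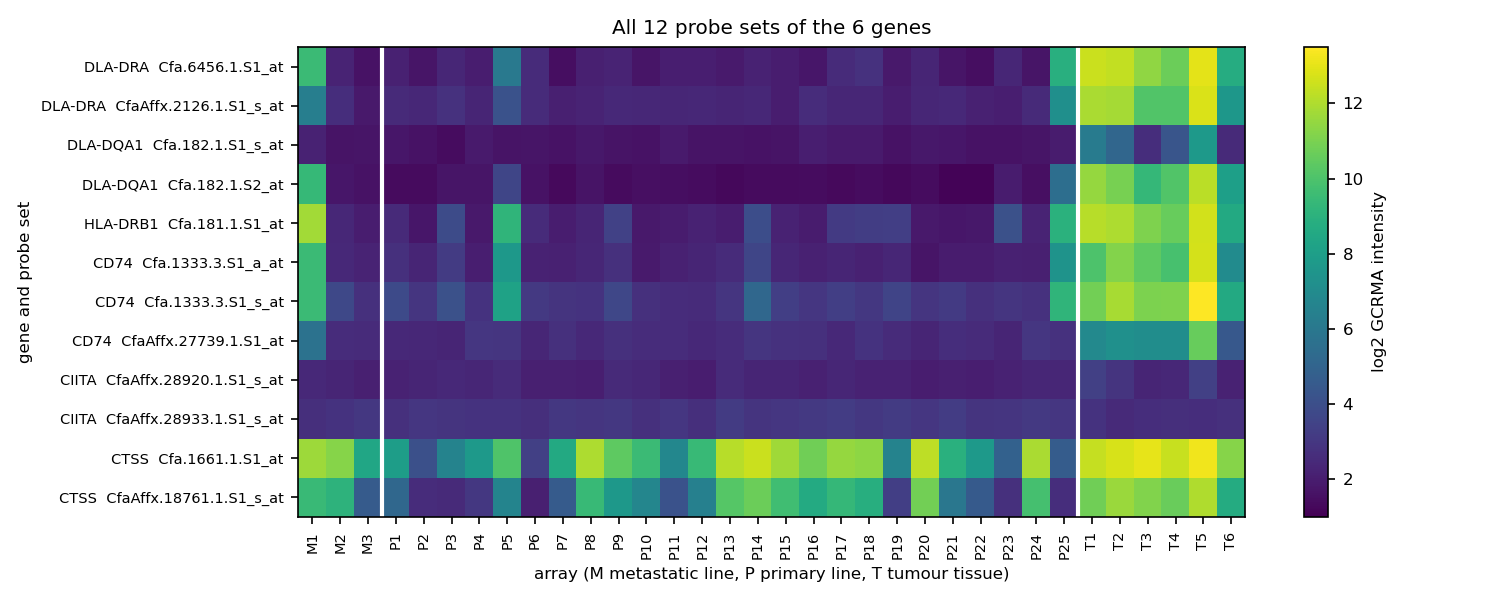
Log2 GCRMA intensity (colour) of all 12 probe sets of the 6 genes (rows) on 34 arrays (columns: metastatic lines, primary lines, tumour tissues, separated by white lines). M1, P5 and P25 stand out from the other lines in the DLA-DRA and HLA-DRB1 rows and in 2 of the 3 CD74 rows (the CD74 row CfaAffx.27739.1.S1_at shows M1 alone), both CIITA rows stay dark on all arrays, and the CTSS rows are bright in many lines that are dark in the class II rows.

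Against tissues, the primary lines were lower in each of the 4 genes that passed the filter on line arrays alone, DLA-DRA, HLA-DRB1, CD74 and CTSS. The rule was limma's adjusted p under 0.05 over 7849 genes and at least 2-fold, by which 9.06% of all genes were lower and 5.57% higher. DLA-DQA1 was above 5 on 2 line arrays and passed the filter only through tissues. Its direction was thus set by the filter, and its difference is given as a value. The largest fall was that of DLA-DRA, which averaged 2.51 ± 1.62 in primary lines (SD, n = 24) and 11.45 ± 1.56 in tissues (n = 6), a difference of -8.94 (SE 0.845, limma adjusted p = 5.57e-10). HLA-DRB1 fell by 8.13 (SE 1.02, limma adjusted p = 2.9e-07), and the difference of DLA-DQA1 was -8.65 (SE 0.679). CD74 averaged 3.63 ± 1.67 in primary lines and 11.16 ± 1.59 in tissues, and fell by 7.53 (SE 0.816, limma adjusted p = 1.27e-08). CTSS averaged 9.01 ± 2.84 in primary lines and 12.52 ± 0.715 in tissues, and its difference was -3.50 (SE 1.11, limma adjusted p = 0.0213). The CTSS call was lost with array weights (-2.57, limma adjusted p = 0.083) and without tissue 5 (-3.36, limma adjusted p = 0.0507). Within title prefix 3 its difference was -6.20 (limma adjusted p = 0.0064). That fit had only primary lines 22 and 23, with CTSS at 7.76 and 4.88, both under the primary line array median of 9.40. In bulk samples, fewer cells of a type and less RNA per cell cannot be told apart.

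In the 2 dogs with both a line and a tissue, the chains and CD74 were lower in the line. DLA-DRA was 1.65 in the mean of the line arrays of dog 22 and 12.97 in its tissue, and 2.30 in the line of dog 23 and 8.74 in its tissue. CD74 was 3.15 in the lines and 13.48 in the tissue of dog 22, and 2.93 and 8.59 in the line and tissue of dog 23. CTSS did not follow in both dogs: it was 7.17 in the lines and 13.22 in the tissue of dog 22, but 12.24 in the line and 11.21 in the tissue of dog 23.

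Between metastatic and primary lines none of the 5 genes passed limma's test (adjusted p under 0.05), where 1 gene of 7849, or 0.0127%, did. DLA-DRA averaged 4.47 ± 4.40 in metastatic lines (SD, n = 3) and 2.51 ± 1.62 in primary lines (n = 24), a difference of 1.96 (limma adjusted p = 0.785). DLA-DQA1 differed by 2.54 (limma adjusted p = 0.576), the only one of the 5 with an unadjusted p under 0.05, at 0.0087. HLA-DRB1 differed by 2.34, CD74 by 1.70 and CTSS by 1.42 (limma adjusted p = 0.785, 0.799 and 0.892). Metastatic line 1 alone set the sign for 4 of them: without it the differences were -0.57 for DLA-DRA, -0.02 for DLA-DQA1, -0.86 for HLA-DRB1 and -0.40 for CD74, and CTSS stood at 0.80. With array weights the differences shrank to 0.33 for DLA-DRA, 0.94 for DLA-DQA1, 0.20 for HLA-DRB1 and 0.24 for CD74, and CTSS was at -0.19, with no call. Within title prefix 2, where all metastatic lines lie, DLA-DRA differed by 1.85 (adjusted p = 0.726) and CD74 by 1.60 (adjusted p = 0.754).

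Among the 4 genes that passed on line arrays alone, metastatic lines were lower than tissues in DLA-DRA, CD74 and HLA-DRB1 by the same rule. Over all genes, 4.57% were lower and 2.93% higher. Metastatic line 1 lay within the tissue range of each of these genes, and metastatic lines 2 and 3 lay below it. The differences were -6.98 for DLA-DRA (limma adjusted p = 0.000481), -5.83 for CD74 (limma adjusted p = 0.00242) and -5.79 for HLA-DRB1 (limma adjusted p = 0.0187). Their SDs in metastatic lines (n = 3) were 4.40, 3.67 and 5.54, wider than in primary lines at 1.62, 1.67 and 1.99. DLA-DQA1 differed by -6.10, a direction set by the filter, and metastatic line 1 was within its tissue range too. The HLA-DRB1 call was lost without metastatic line 2 (-4.29, adjusted p = 0.168), without metastatic line 3 (-4.10, adjusted p = 0.177) and in the fit that allowed for title prefix (-6.0, adjusted p = 0.17). CTSS differed by -2.09 (limma adjusted p = 0.517).

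Within the 6 tissues, DLA-DRA was related to each of the other genes in a family of 6 relations, tested by exact two-sided permutation and adjusted over the 6. HLA-DRB1 kept the same order as DLA-DRA (r = 0.999, exact p = 0.0014, adjusted 0.0083, the smallest p that 6 tissues allow; rho = 1.0, exact p = 0.0028). DLA-DQA1 followed closely (r = 0.93, exact p = 0.0069, adjusted 0.0208; rho = 0.943, exact p = 0.0167). CD74 had r = 0.876 (exact p = 0.025, adjusted 0.0375) but rho = 0.6 (exact p = 0.242). The 2 tissues farthest from the median of DLA-DRA were tissues 6 and 4, and without them r was 0.999 for HLA-DRB1, 0.994 for DLA-DQA1 and 0.673 for CD74.

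For CTSS the relation in tissues missed the threshold (r = 0.847, exact p = 0.0472, adjusted 0.0567; rho = 0.6, exact p = 0.242) and rested on those 2 tissues, since r was -0.05 without them. The CIITA probe set CfaAffx.28920.1.S1_s_at followed DLA-DRA in tissues (r = 0.852, exact p = 0.0208, adjusted 0.0375; rho = 0.943, exact p = 0.0167; r = 0.947 without tissues 6 and 4), all at values under 3.4. The other, CfaAffx.28933.1.S1_s_at, did not pass (r = -0.24, exact p = 0.631; rho = -0.14, exact p = 0.803; r = 0.226 without tissues 6 and 4). Leaving out 1 tissue moved r of CD74 between 0.63 and 0.967 and r of CTSS between 0.36 and 0.925. No relation was tested across primary lines, because only 2 had DLA-DRA above 5.

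**Figure D3:**
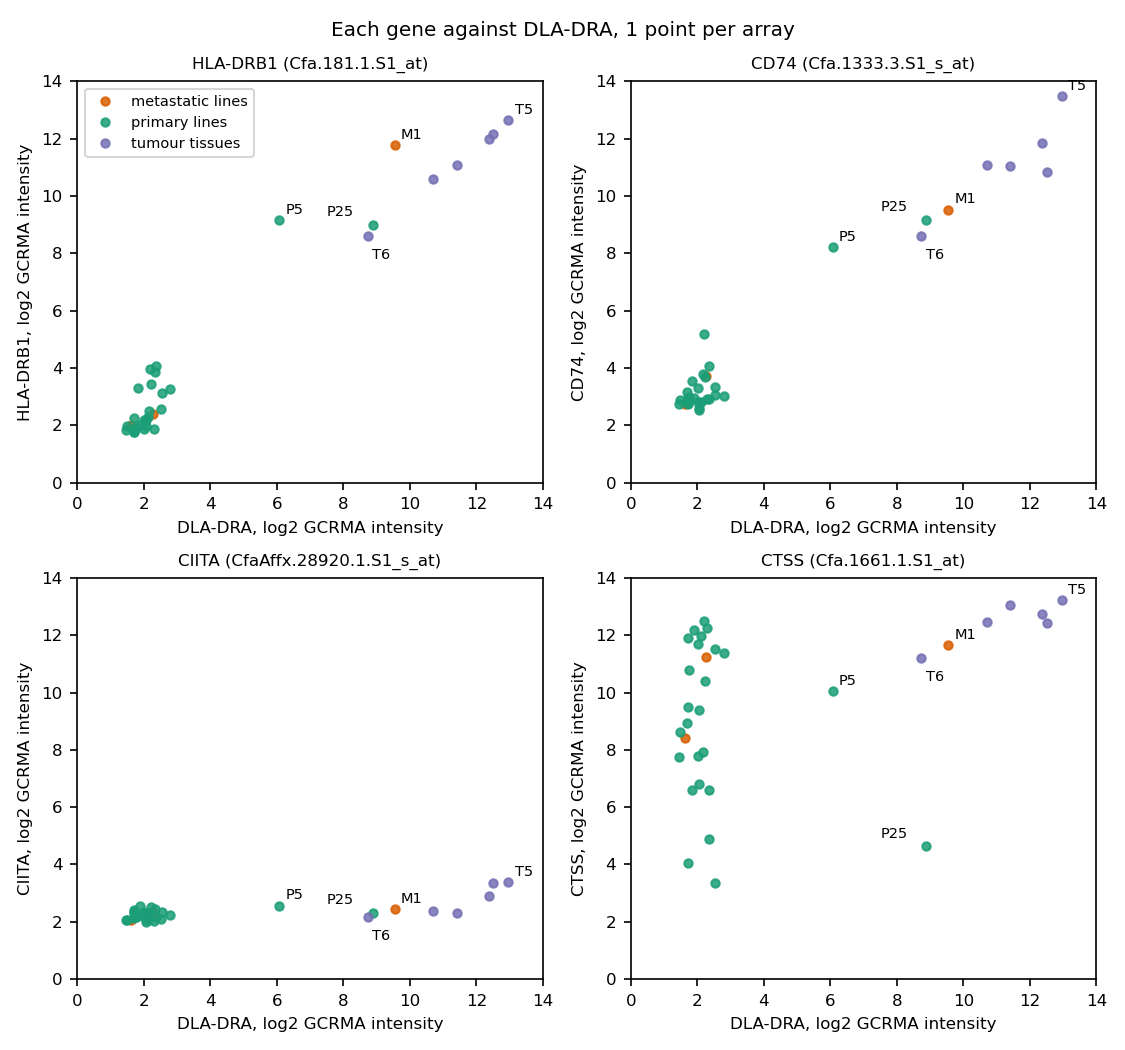
Log2 GCRMA intensity of HLA-DRB1, CD74, CIITA and CTSS (vertical axes) against DLA-DRA (horizontal axes), 1 point per array, coloured by group. HLA-DRB1 and CD74 are high where DLA-DRA is high, CIITA stays between 2.01 and 3.38, and CTSS spans 3.37 to 12.49 among primary lines, most of them low in DLA-DRA.

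Among 5 other class II genes, DLA-DQB1, DLA-DMA and DLA-DMB were highest in the same 3 lines, while DLA-DOA and DLA-DOB were dim everywhere. DLA-DQB1, the DQ beta chain, was highest in metastatic line 1 at 7.06, then primary lines 25 at 4.04 and 5 at 3.44, against 6.89 to 12.20 in tissues. DLA-DMA, a chain of the DM peptide editor, was 10.67 in metastatic line 1, 8.24 in primary line 25 and 7.52 in primary line 5, the highest 3 of 28 line arrays. The median of the primary line arrays was 5.63 for DLA-DMA. DLA-DMB, its partner, was 4.77 in primary line 25, 3.40 in metastatic line 1 and 3.21 in primary line 5, again the top 3. All 3 values were under 5, and primary line 5 was close to primary line 4 at 3.17. DLA-DOA and DLA-DOB, which form the DO modulator of DM, were at most 2.96 on any array and were not tested. DLA-DMA, above 5 on 19 line arrays, was lower in primary lines than in tissues by -3.43 by the rule above. DLA-DQB1 (-7.57) and DLA-DMB (-3.0) were also called lower, but they were above 5 on 1 and 0 line arrays and passed the filter only through tissues, so that direction was set by the filter.

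Of 7 genes that act on the class II promoters, 6 were above 5 in each metastatic line, between 5 and 7 on primary line arrays and 6 or 7 in tissues. RFX5, RFXANK and RFXAP form the RFX complex, and NFYA, NFYB, NFYC and CREB1 bind beside it. RFX5 was 7.48 in metastatic line 1, the highest of the 28 line arrays, but 6.57 in primary line 5 and 6.15 in primary line 25, near the primary median of 6.53. RFXANK was 7.13, 6.01 and 5.54 in those 3 lines, and RFXAP 9.62, 9.45 and 8.84. NFYC and NFYA were highest in primary line 25, at 9.28 and 5.45, and NFYA was lowest in metastatic line 1 at 2.99. In the RFX genes primary lines 5 and 25 thus did not stand out among the lines. Of its 7 genes, 2 were lower in primary lines than in tissues, against 9.06% of all genes (list median -0.86), RFXANK by -1.58 (adjusted p = 0.00261) and NFYC by -1.01 (adjusted p = 0.0216).

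The interferon gamma pathway, which induces CIITA, was measured through its receptor, kinases and targets. Its ligand IFNG was at most 2.41 in lines and 3.98 in tissues. IRF1, an interferon target that acts on CIITA, was 6.27 in metastatic line 1, 6.30 in primary line 5 and 5.99 in primary line 25, near the primary median of 5.88. None of 7 tested genes of this list was lower or higher by the rule in primary lines against tissues (limma; median -0.80). Over all genes 9.06% were lower and 5.57% higher, and none of 7 is near those shares. The largest differences were USF1 at -0.99, IFNGR1 at -0.87 and JAK2 at -0.85 (limma adjusted p = 0.0773, 0.121 and 0.0682). IFNGR1 was 7.54 in tissue 3, and the other tissues began at 8.96. PTPN2, a phosphatase that damps JAK signalling, differed by -0.80 (adjusted p = 0.0019), under 2-fold. Among leukocyte regulators of CIITA, SPI1 was 2.43, 2.79 and 2.61 in metastatic line 1 and primary lines 5 and 25, against 3.08 to 7.81 in tissues. SPI1 was the 1 tested gene of 3 and passed the filter only through tissues. The direction of its difference of primary lines minus tissues, -2.33, was thus set by the filter.

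Class I genes differed among the 3 lines. PSMB9, an immunoproteasome subunit that interferon induces, was 9.94 in metastatic line 1 but 4.16 in primary line 5 and 3.99 in primary line 25, the lowest 2 of all 28 line arrays, against a primary median of 7.43. TAP1, the peptide transporter, was 10.72, 9.49 and 9.19 in those lines, with a primary median of 9.17. DLA88, another class I gene, was 8.71 in metastatic line 1, rank 26 of the 28 line arrays. It was 10.47 in primary line 5 and 11.16 in primary line 25, with a primary median of 9.965. DLA-79, a class Ib gene, was highest of the line arrays in metastatic line 1 at 8.86, and was 6.79 in primary line 5 and 3.69 in primary line 25, both above the primary median of 1.86. PSMB8, another immunoproteasome subunit, was 6.81 in metastatic line 1, 3.74 in primary line 5 and 4.69 in primary line 25, with a primary median of 3.58. Of 11 tested class I genes, 4 were lower in primary lines than in tissues, where 9.06% of all genes were (list median -1.08, against -0.05 over all genes): PSMB8 by -3.58, DLA-64 by -3.58, PSMB9 by -2.37 and PSMB10 by -1.20.

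Of 11 endosomal processing genes, 10 were above 5 in each metastatic line, 8 to 10 on primary line arrays and 9 or 10 in tissues. CTSC, cathepsin C, was the 1 of 10 tested genes called lower in primary lines than in tissues, by -4.50 (adjusted p = 9.19e-06), while IFI30, the endosomal thiol reductase, differed by -0.65 and CTSD, cathepsin D, by 0.65 (list median -0.07). That 1 of 10 is near the 9.06% of all genes that were lower. IFI30 was 12.31 in metastatic line 1, the highest line, and 8.52 in primary line 25, the lowest. Of 5 tested costimulation genes, 3 passed the filter on line arrays alone. Of these, CD83 (-2.65) was lower in primary lines, and ICAM1, an adhesion molecule, was higher by 2.05. Over all genes 9.06% were lower and 5.57% higher. CD86 (-6.00) and CD80 (-2.68) passed the filter only through tissues, so their direction was set by the filter. CD86 was 2.80, 3.28 and 2.58 in metastatic line 1 and primary lines 5 and 25.

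Markers of class II-bearing cells were checked in the same arrays, and their part in the class II levels was not tested. In tissues, between 9 and 12 of the 13 macrophage markers were above 5, against 0 in every metastatic line and between 0 and 3 on primary line arrays. The summed level of this list was 6.12 to 6.42 in metastatic lines, 6.00 to 9.67 on primary line arrays and 12.17 to 14.33 in tissues. Of 11 tested macrophage markers, 10 passed the filter only through tissues, and so did the 3 tested leukocyte markers, so their being lower in lines was set by the filter and is given as values. The difference of primary lines minus tissues was -9.89 for lysozyme LYZ, -7.65 and -7.58 for the complement genes C1QA and C1QC, -8.27 for LAPTM5, -3.78 for ITGB2 and -2.81 for the pan-leukocyte gene PTPRC. CD68 was the 1 macrophage marker that passed on line arrays alone.

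The 3 lines differed in such markers. PTPRC was 2.68, 2.62 and 2.58 in metastatic line 1 and primary lines 5 and 25, within the 2.19 to 2.87 of the primary line arrays and below the lowest tissue at 3.74. Metastatic line 1 and primary line 25 had 0 of 13 macrophage and 0 of 4 leukocyte markers above 5. Primary line 5 was the highest of the 28 line arrays for 7 of 13 macrophage markers, LYZ at 5.14 and C1QA, C1QB, C1QC, AIF1, TYROBP and FCER1G at 2.62 to 3.11. Only 1 of the 13, LYZ, was above 5 in that line, so the other ranks are among dim values. MSR1, of the same list, ranked 15 in it. Primary line 5 also had LAPTM5 at 4.79 and CD68 at 4.16. In primary line 4, named after its values were seen, LAPTM5 was 13.74, CD68 8.70, CD14 7.99 and CD86 6.70, but DLA-DRA was 2.01 and CD74 2.82. That line had 3 of 13 macrophage markers above 5, CD14, CD68 and MSR1, while CD163 was 2.58, CSF1R 2.13, C1QA 2.37 and LYZ 3.05, and PTPRC was 2.48.

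Markers of other cells completed the check. In metastatic line 1, 4 of 7 endothelial markers were above 5, PECAM1 at 6.16, EMCN at 6.10, TEK at 5.74 and KDR at 5.26, with VWF at 3.46. Primary line 5 had 1, PECAM1 at 5.85, and primary line 25 had none. In primary line 4 PECAM1 was 13.88 and EMCN 13.88, again with DLA-DRA at 2.01. Of 5 tested endothelial markers 3 passed the filter only through tissues, among them EMCN (-5.77), while PECAM1 (-8.26) and KDR (-5.87) passed on line arrays too and were lower in primary lines than in tissues. Of 7 osteoblast genes (list median -1.02), 6 passed the filter on line arrays alone. Of these, SPP1 (-7.38) and ALPL (-6.69) were lower, against 9.06% of all genes. IBSP (-8.38) passed only through tissues, so its direction was set by the filter. ALPL, the bone alkaline phosphatase, was 9.90 in primary line 25, the highest line. COL1A1 was at least 11.88 on every array. The 1 tested B cell gene, JCHAIN, differed by -0.39 and the 1 tested dendritic cell gene, BATF3, by -0.25 (limma adjusted p = 0.541 and 0.751). Neither gave a measure of those cells here. JCHAIN was 8.14 to 10.69 on primary line arrays, where MS4A1, CD79A, CD79B and PAX5 were at most 3.97. BATF3 was highest in primary line 4 at 7.07. ITGAX, FLT3 and LAMP3 reached 6.15, 5.59 and 4.63 in tissues, against 2.31, 4.38 and 2.53 on primary line arrays, while CCR7 and XCR1 were not higher in tissues. No T or NK cell marker was above 5 in a line and up to 4 of 8 were in a tissue, so none passed the filter.

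**Figure D4:**
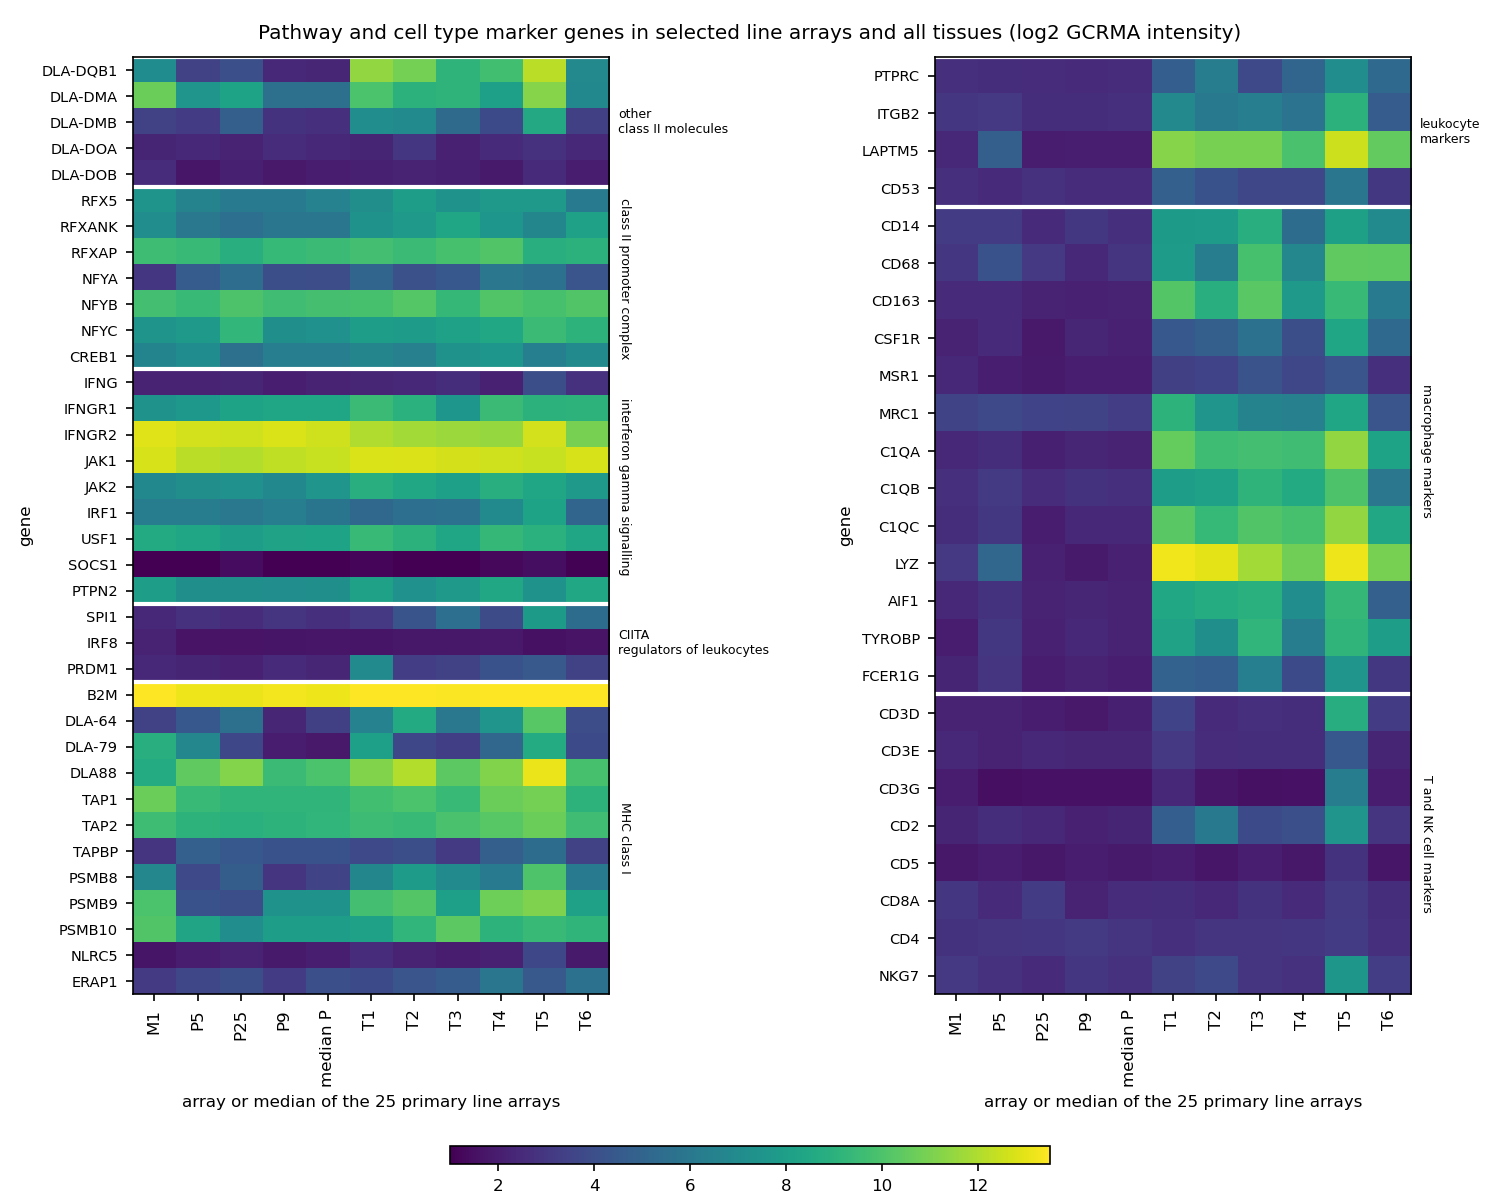
Log2 GCRMA intensity (colour) of class II, promoter complex, interferon, class I and leukocyte marker genes (rows) in metastatic line 1 (M1), primary lines 5, 25 and 9 (P5, P25, P9), the median of the 25 primary line arrays, and tissues 1 to 6 (T1 to T6). DLA-DMA is brighter in M1, P5 and P25 than in P9, PSMB9 is dark in P5 and P25, and the macrophage rows are dark in all 4 lines, except LYZ at 5.14 in P5, and brighter in tissues.

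Primary lines 5 and 9 had closely similar arrays, while DLA-DRA and HLA-DRB1 were above 5 only in primary line 5 of the 2. The labels give them different dogs, and whether they are related cultures was not tested. Of 7849 genes, 104 or 1.33% differed by at least 2 log2 units, 75 higher in primary line 5 and 29 higher in primary line 9, and the median absolute difference was 0.254. HLA-DRB1 was 9.17 in primary line 5 and 3.44 in primary line 9, the second largest difference of all genes. CD74 was 8.22 and 3.67 (rank 8) and DLA-DRA 6.08 and 2.23 (rank 12) in primary lines 5 and 9. DLA-DQA1 ranked 74 with 3.63 against 1.36, DLA-DMA ranked 131 with 7.52 against 5.63, and CTSS was 10.04 against 10.40. Other genes far higher in primary line 5 were TNN (tenascin N, 8.02 against 2.14), MMP9 (gelatinase B, 7.71 against 2.27), CXCL10 (an interferon-induced chemokine, 7.92 against 2.53), DLA-79 (6.79 against 1.93) and CXCL8 (a neutrophil chemokine, 7.26 against 2.63). The largest difference the other way was that of PTPRR, a tyrosine phosphatase, at 4.29 in primary line 5 and 9.13 in primary line 9. Each line is 1 array, so these differences have no replicate check.

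**Figure D5:**
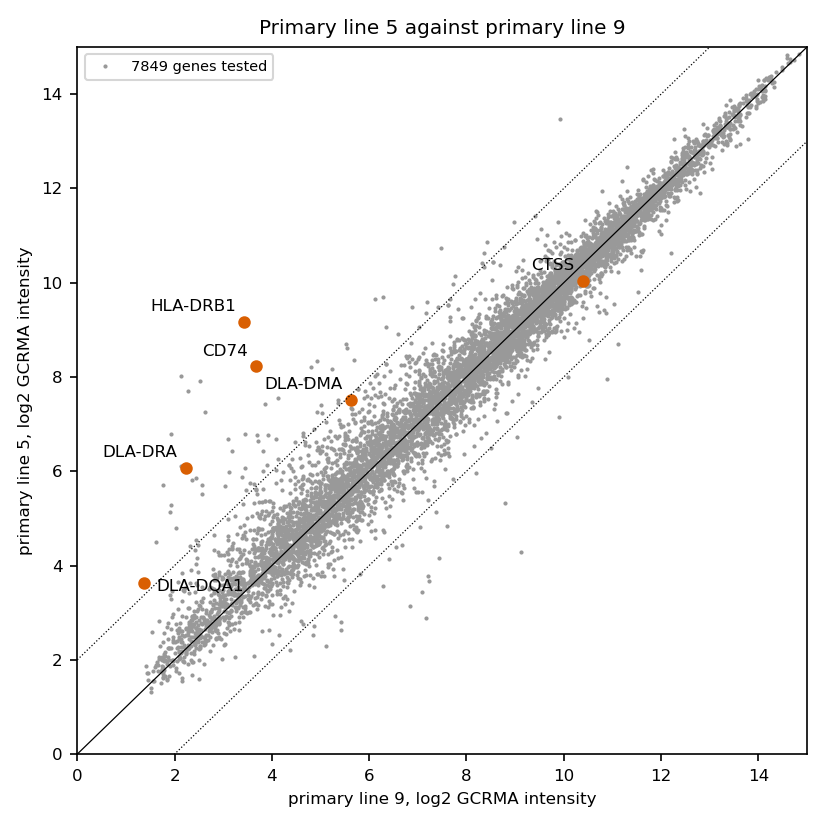
Log2 GCRMA intensity of 7849 genes in primary line 5 (vertical axis) against primary line 9 (horizontal axis), with the line of equality (solid), differences of 2 log2 units (dotted) and named genes in orange. HLA-DRB1, CD74, DLA-DRA and DLA-DQA1 lie above the upper dotted line, DLA-DMA just under it, and CTSS near the line of equality.

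The genes whose levels ran most like DLA-DRA were taken by Pearson's r, as a description. Across the 6 tissues they were HLA-DRB1 (0.999), DUSP1 (0.983), CYBB (0.981), LATS2 (0.98) and TAF12 (0.98), out of 7848 genes. CYBB is the phagocyte NADPH oxidase, and DUSP1 a stress-induced phosphatase. DLA-DQB1 ranked 10, DLA-DQA1 37, CD74 108, CTSS 164 and PTPRC 1885. Across the 24 primary lines they were DLA-DQA1 (0.975), CD74 (0.926), HLA-DRB1 (0.923), DLA-DQB1 (0.917) and CYBB (0.853). These rest on primary lines 5 and 25, since Spearman's rho was 0.537, 0.496, 0.726, 0.128 and 0.289 for the same genes. CTSS had r = -0.24 over the primary lines and ranked 6849.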

How the data were processed

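Values were the deposited intensities of 34 Affymetrix Canine_2 arrays, 1 per probe set, which the authors had summarised with GCRMA, per the submitters' processing notes. Neither version nor settings are stated (not given in the sources used here). Deposited intensities were linear, and their log2 was used, with a floor at 1 that altered 0 values. Arrays have no read depth, and their number limits the precision. Groups came from the source labels.

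Of 43035 probe sets, 175 were controls. Of the rest, 29254 had 1 symbol in the platform annotation, 439 had several and 13167 had none listed. Probe sets above log2 5 on at least 3 arrays were kept (18591, of which 14059 had 1 symbol), and the one with the highest mean stood for a gene, which gave 7849 genes. A suffix _s_at or _a_at marks probes that can match several transcripts.

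Both line arrays of dog 22 were averaged (33 columns). The 3 groups shared 1 fit in limma 3.58.1 (lmFit and eBayes, R 4.3.3). P-values were adjusted by Benjamini-Hochberg, and a gene was called at under 0.05, plus at least 2-fold for comparisons with tissues. The fit was tested on simulated data. Permutation tests enumerated every order of the tissues, with ranks for rho from scipy 1.17.1. The 6 genes and the 14 lists (other class II molecules, endosomal processing, class II promoter complex, interferon gamma signalling, CIITA regulators, MHC class I, costimulation, and macrophage, leukocyte, B cell, T and NK cell, dendritic cell, endothelial and osteoblast markers, 105 genes on the array) were chosen with earlier results of these data known. Named were the 6 genes and the 3 genes of each list with the largest difference of primary lines from tissues. The 5 genes most like DLA-DRA in tissues and in primary lines were named too. Of the list genes above log2 5 in a line with class II above log2 5, only some were named. Other list genes and the genes of the comparison of primary lines 5 and 9 were chosen after seeing their values. A summed level of a list is log2 of its summed linear intensities.

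Dogs 22 and 23 have both lines and tissues, so dog was fitted as a random block, with an estimated correlation within dogs of 0.129. Other alternatives were filters, quantile normalization, choice of probe set, array weights, title prefix, primary lines 5 and 9 averaged, and each sample left out.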

Additional observations from a re-analysis of the deposited data

Results flagged for a closer look

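In groups of 4 to 10 samples, the highest and lowest of the 6 tissues were compared with their neighbours for each of 45 genes, and 1 stood apart. Chance gives about 1 in every 20 genes, so 1 of 45 is not more than chance gives. It was IFNGR1, a chain of the interferon gamma receptor, which was 7.54 in tissue 3, while the next lowest tissue was at 8.96, a gap of 0.712 of the whole range.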

How the results depend on the processing

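For primary lines minus tissues, DLA-DRA, HLA-DRB1 and CD74 kept their direction and call under 11 alternative settings and with each sample left out. DLA-DQA1 kept its direction in these too. It passed the main filter only through tissues, and with no filter its difference was again -8.65 (limma adjusted p = 2.46e-11). No result among the genes named reversed a call. Fitting a replicate block, dog as a random effect, gave -9.0 for DLA-DRA, -7.59 for CD74 and -3.56 for CTSS (limma adjusted p = 1.6e-10, 3.94e-09 and 0.0178) and changed no call of the 5 genes. Counts over all genes moved more. For primary lines minus tissues, 437 genes were higher and 711 lower, against 470 lower with the filter at log2 7, 662 higher with the most variable probe set per gene (interquartile range), 178 higher and 315 lower with title prefix as a covariate, 40 higher and 156 lower within title prefix 3 (fewer samples), and 1375 higher and 1574 lower of 18591 probe sets. For metastatic minus primary lines, 1 gene was higher and 0 lower (533 with an unadjusted p under 0.05), against 0 higher with the filter at log2 7 or the most variable probe set, 3 higher and 1 lower with array weights, and 3 higher of 18591 probe sets. Each sample left out gave 0 to 13 higher and 0 to 11 lower, the most without metastatic line 2. It gave 5 higher and 1 lower without primary line 7, and 0 higher without metastatic line 1 or 3. For metastatic lines minus tissues, 230 were higher and 359 lower, against 236 lower with the filter at log2 7, 49 higher and 156 lower with title prefix as a covariate, and 530 higher and 772 lower of 18591 probe sets. Each sample left out gave 96 to 280 higher, with 96 without metastatic line 1 and 145 without metastatic line 2 or 3. The cause of these moves was not tested, except that more probe sets than genes were counted.

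With 1 of 6 tissues left out, r with DLA-DRA ran from 0.997 to 0.9997 for HLA-DRB1, 0.849 to 0.982 for DLA-DQA1, 0.63 to 0.967 for CD74, 0.36 to 0.925 for CTSS, 0.804 to 0.925 for CIITA CfaAffx.28920.1.S1_s_at and -0.68 to 0.0141 for CfaAffx.28933.1.S1_s_at. Of 42 alternatives, 18 lost the call, all of them with 5 tissues, where few arrangements exist. The 42 include those of CTSS and of CIITA CfaAffx.28933.1.S1_s_at, which had no call to lose. Permutation tests of relations across primary lines were not run, and r and rho there only rank genes, as 2 lines had DLA-DRA above 5 and 6 were needed. DLA-DQA1 failed the filter within title prefix 2. The 3 metastatic lines, the 1 array per line and the dim CIITA probe sets limit what can be said.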
